A study of Mus musculus with 4 samples.

Results

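The Notch genes described here are 10 ligands, receptors and targets of the Notch pathway, taken as a named list from the 55511 genes of the count table: the ligands Dll1, Dll3, Jag1 and Jag2, the receptors Notch1, Notch2 and Notch3, and the target genes Hes1, Hes5 and Hey1. Their transcripts were followed across the 10 cell types that the authors had assigned to the cells of the main olfactory epithelium, separately in each mouse.

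The cells came from 4 male C57BL/6 mice at 8 weeks of age, with 1 library per mouse and a single untreated group. Dissociated nasal tissue was sorted for Hoechst+ and DRAQ7- cells, that is for nucleated cells with an intact membrane, and sequenced with the 10x Genomics 3′ v3.1 chemistry, in which captured transcripts are tagged with unique molecular identifiers (UMIs) so that copies of a molecule count once. The authors retained 15859 of 21809 cell barcodes, and the total count ranged from 23157467 to 32382702 UMIs per library. A pair of mice shared between 4 and 14 barcodes.

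Notch signalling passes between cells that touch. A ligand of the Delta or Jagged family on the surface of a cell binds a Notch receptor on its neighbour, the receptor is cut, and its inner part enters the nucleus, joins the DNA-binding protein RBPJ and switches on repressors of the Hes and Hey families. In epithelia that renew themselves, including the olfactory epithelium, the pathway is known for its part in keeping stem cells at rest and in the choice between neurons and supporting cells.

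The types were horizontal basal cells, the reserve stem cells, in 2 groups (HBC1, 210 cells; HBC2, 544 cells), globose basal cells, the dividing progenitors (GBC, 202 cells), immediate neuronal precursors (INP, 284 cells), early and late immature olfactory sensory neurons (iOSN1, 866 cells; iOSN2, 1006 cells), mature olfactory sensory neurons (mOSN, 10519 cells), sustentacular cells, the supporting cells of the epithelium (Sus, 336 cells), and 2 groups of microvillar cells (Mv1, 124 cells; Mv2, 1768 cells). Their defining markers were present, and several types held markers of other cells as well. The basal keratin Krt5 reached 21.3 UMIs per 10000 in HBC1 and 7.28 in HBC2. HBC2 also held Bpifa1, a secreted protein of respiratory epithelium, at 165 and the sustentacular gene Cyp2g1 at 25.7, against 0.234 and 0.865 in HBC1. The respiratory markers of the marker list summed to between 40.4 and 374 in HBC2 of the mice. The fibroblast markers of the list summed to 7.80 in HBC2, 5.24 in GBC and 1.47 in HBC1, and their part in the results of HBC2 was not tested. GBC carried Top2a of dividing cells at 6.83, together with Ascl3 of Mv2 cells at 1.99 and Acta2 of smooth muscle at 1.96. Mv1 carried Trpm5 of chemosensory microvillar cells at 6.01 and Mv2 carried Ascl3 at 19.5. In Mv1 the 5 mature neuron markers of the marker list summed to 31.6, against 207 in mOSN, and in Mv2 the 5 sustentacular markers summed to 14.2, against 113 in Sus. The pericyte gene Rgs5 stood at 217 in Sus and at 3.89 in GBC. Of the 5 pericyte and smooth muscle markers of the list, 3 had 0 UMIs in Sus, where the 5 summed to 217. In GBC 1 of the 5 had 0 UMIs, and they summed to 6.18. The part of the markers in Mv1, Mv2 and Sus in the results was not tested.

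Levels are UMIs of a gene per 10000 UMIs in the sum of all cells of a type in a mouse, given as mean ± SD over the mice (n = 4). Because only 3′ ends were counted, with no scaling to gene length, levels were compared between types and never between genes. The types were tested with edgeR's quasi-likelihood test on the UMI sums with the mouse as a block, with Benjamini-Hochberg adjustment over all 12549 genes that passed the filter on low counts. The authors drew the types by clustering cells on these same genes, so an adjusted p measures how steady a difference between their types was over the mice. Of the 10 genes, 8 passed the filter. Hes5 and Dll3 did not and are given as values with no test. All 8 tested genes differed among the 10 types, as did 97.1% of all genes tested, so nothing is read from that count.

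The genes fell into a few broad patterns. Hes1, Hey1, Notch1 and Notch2 were high in horizontal basal and sustentacular cells and nearly undetected in neurons. Jag1 and Jag2 were highest in both groups of horizontal basal cells. Jag1 was low in precursors and higher in mature neurons, whereas Jag2 stood between 0.275 and 0.460 from INP to mature neurons. Dll1 was highest in HBC1 and Mv2. Hes5 was concentrated in GBC.

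**Figure D1:**
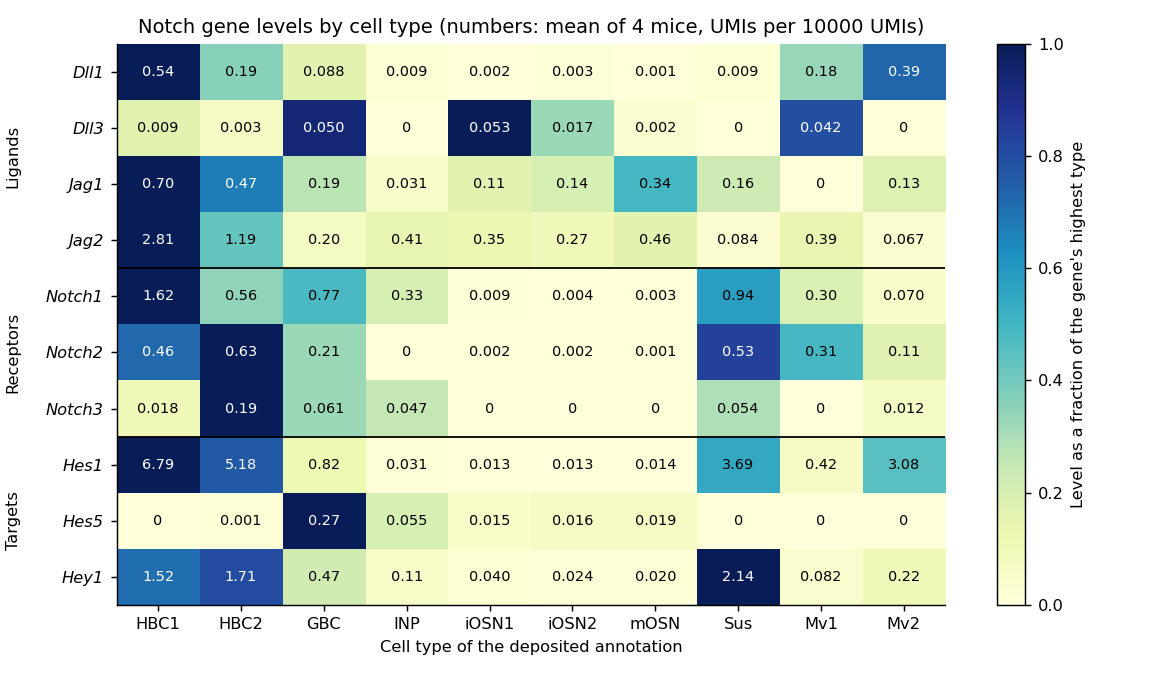
Mean level of each Notch gene (rows, by role) in each cell type (columns), with the mean over 4 mice in UMIs per 10000 printed in each field and colour giving the level as a fraction of the gene's highest type. Hes1 reached 6.79 in HBC1 and 0.0135 in mOSN, and the highest level of Jag2, 2.81, lay in HBC1.

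In the GENCODE M21 annotation of GRCm38 the ligands are at chr17:15367354-15376872 (Dll1, minus strand), chr7:28293553-28302238 (Dll3, minus strand), chr2:137081456-137116644 (Jag1, minus strand) and chr12:112907819-112929776 (Jag2, minus strand). The receptors are at chr2:26457903-26516663 (Notch1, minus strand), chr3:98013527-98150361 (Notch2, plus strand) and chr17:32120820-32166852 (Notch3, minus strand). The targets are at chr16:30064384-30067796 (Hes1, plus strand), chr4:154960923-154962371 (Hes5, plus strand) and chr3:8663359-8667256 (Hey1, minus strand). All 10 are protein-coding, and Notch1, Notch2 and Jag2 overlap small annotated genes on the same strand (Mir6996, Gm42819 with Gm42820, and Mir6941), whose reads cannot be told apart from theirs in the overlap.

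Dll1, a Delta-type ligand that activates receptors on neighbouring cells, was read as 0.760, 0.288, 0.443 and 0.659 UMIs per 10000 in HBC1 of mice 1 to 4 (mean 0.538 ± 0.212). In Mv2 the 4 mice gave 0.396, 0.355, 0.395 and 0.420 (0.391 ± 0.0269). Mouse 2 was the lowest in both, and the ranges of HBC1 and Mv2 overlapped. HBC1 and Mv2 did not differ past the threshold (log2 difference 0.56, adjusted p = 0.147, where 41.9% of all genes were called), while Mv2 lay above HBC2 by 0.80 (adjusted p = 0.019, 54.4% of all genes called). That call was lost against the HBC2 cells with basal keratins alone, where the difference was 0.12 ± 0.29 (adjusted p = 0.766) and the ranges overlapped, since these cells stood at 0.304 ± 0.0628. Of the 562 UMIs of Dll1 in retained cells, 65.3% came from Mv2, a type with 10.3% of all UMIs. In Sus there were 2 UMIs of Dll1, in INP also 2, and in the whole of mOSN 7, a level of 0.00123 ± 0.00106. Blood cells, a group the authors removed, gave 0.00789 ± 0.0158 from 1 UMI. They are set beside the types for comparison only. They held at most 10 UMIs of any of the 10 genes, so types that hold these genes are bound to lie above them. No independent measure of free RNA in the droplets was used.

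Dll3, a Delta relative that acts inside the cell on its own receptors and not on neighbours, had 69 UMIs in all, of which 34 lay in iOSN1. The iOSN1 level was 0.0543, 0.0199, 0.0398 and 0.0973 in mice 1 to 4 (0.0528 ± 0.0328). GBC gave 0.00943, 0, 0.0955 and 0.0936 (0.0496 ± 0.0520), from 10 UMIs. The GBC mice were split, with mouse 2 at 0 and mouse 1 far below mice 3 and 4. INP, which in the neuronal lineage stands between these types, held 0 UMIs of 2229579, which allows a level of up to 0.0135. Blood held 0 as well. At 3000 UMIs per cell 1.31% ± 0.704 of iOSN1 cells carried a Dll3 UMI.

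Jag1, a Jagged ligand, stood at 0.506, 1.08, 0.512 and 0.706 in HBC1 (0.701 ± 0.270) and at 0.334, 0.606, 0.418 and 0.528 in HBC2 (0.471 ± 0.12). In mOSN it stood at 0.353, 0.316, 0.338 and 0.362 (0.343 ± 0.0201). The mature neurons varied less over the mice than the horizontal basal cells, but on far more counts. They had 365 to 594 UMIs of Jag1 per mouse, against 15 to 20 in HBC1 and 22 to 71 in HBC2. Fewer counts spread more by counting error alone, so nothing about the mice is read from this. Mature neurons held 1876 of the 2515 UMIs of Jag1, and they also held most UMIs of all genes together. HBC2 lay above mOSN by 0.48 on the log2 scale (adjusted p = 0.011), in a comparison that called 75.3% of all genes, and mOSN above GBC by 0.91 (adjusted p = 7.9e-04), in one that called 74.4%. The latter difference was 1.53 (adjusted p = 2.9e-05) without the GBC cells with Ascl3, stromal or glial markers. Mv1 held 0 UMIs of Jag1, which allows up to 0.0575. Blood cells gave 0.0464 ± 0.0754, from 8 UMIs of which 5 lay in mouse 1. At equal depth 1.61% ± 3.23 of blood cells and 9.23% ± 0.687 of mature neurons had a UMI.

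Jag2, the other Jagged ligand, was 2.20, 3.17, 3.07 and 2.78 in HBC1 (2.81 ± 0.435) and 1.02, 1.51, 1.25 and 0.976 in HBC2 (1.19 ± 0.248). Every HBC1 value lay above every HBC2 value. The next type in order was mOSN, at 0.364, 0.512, 0.501 and 0.461 (0.460 ± 0.0673), below HBC2 by 1.49 on the log2 scale (adjusted p = 1.8e-14). After thinning every cell to 3000 UMIs, 49.7% ± 9.62 of HBC1 cells, 28.4% ± 6.29 of HBC2 cells and 13% ± 2.15 of mature neurons carried Jag2, against 0.208% ± 0.417 of blood cells. Before thinning the shares were 72.0%, 48.6%, 20.9% and 0.968%. The median depth was between 4004 and 6591 UMIs in the mOSN of the 4 mice and between 4620 and 7949 UMIs in their blood cells.

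**Figure D2:**
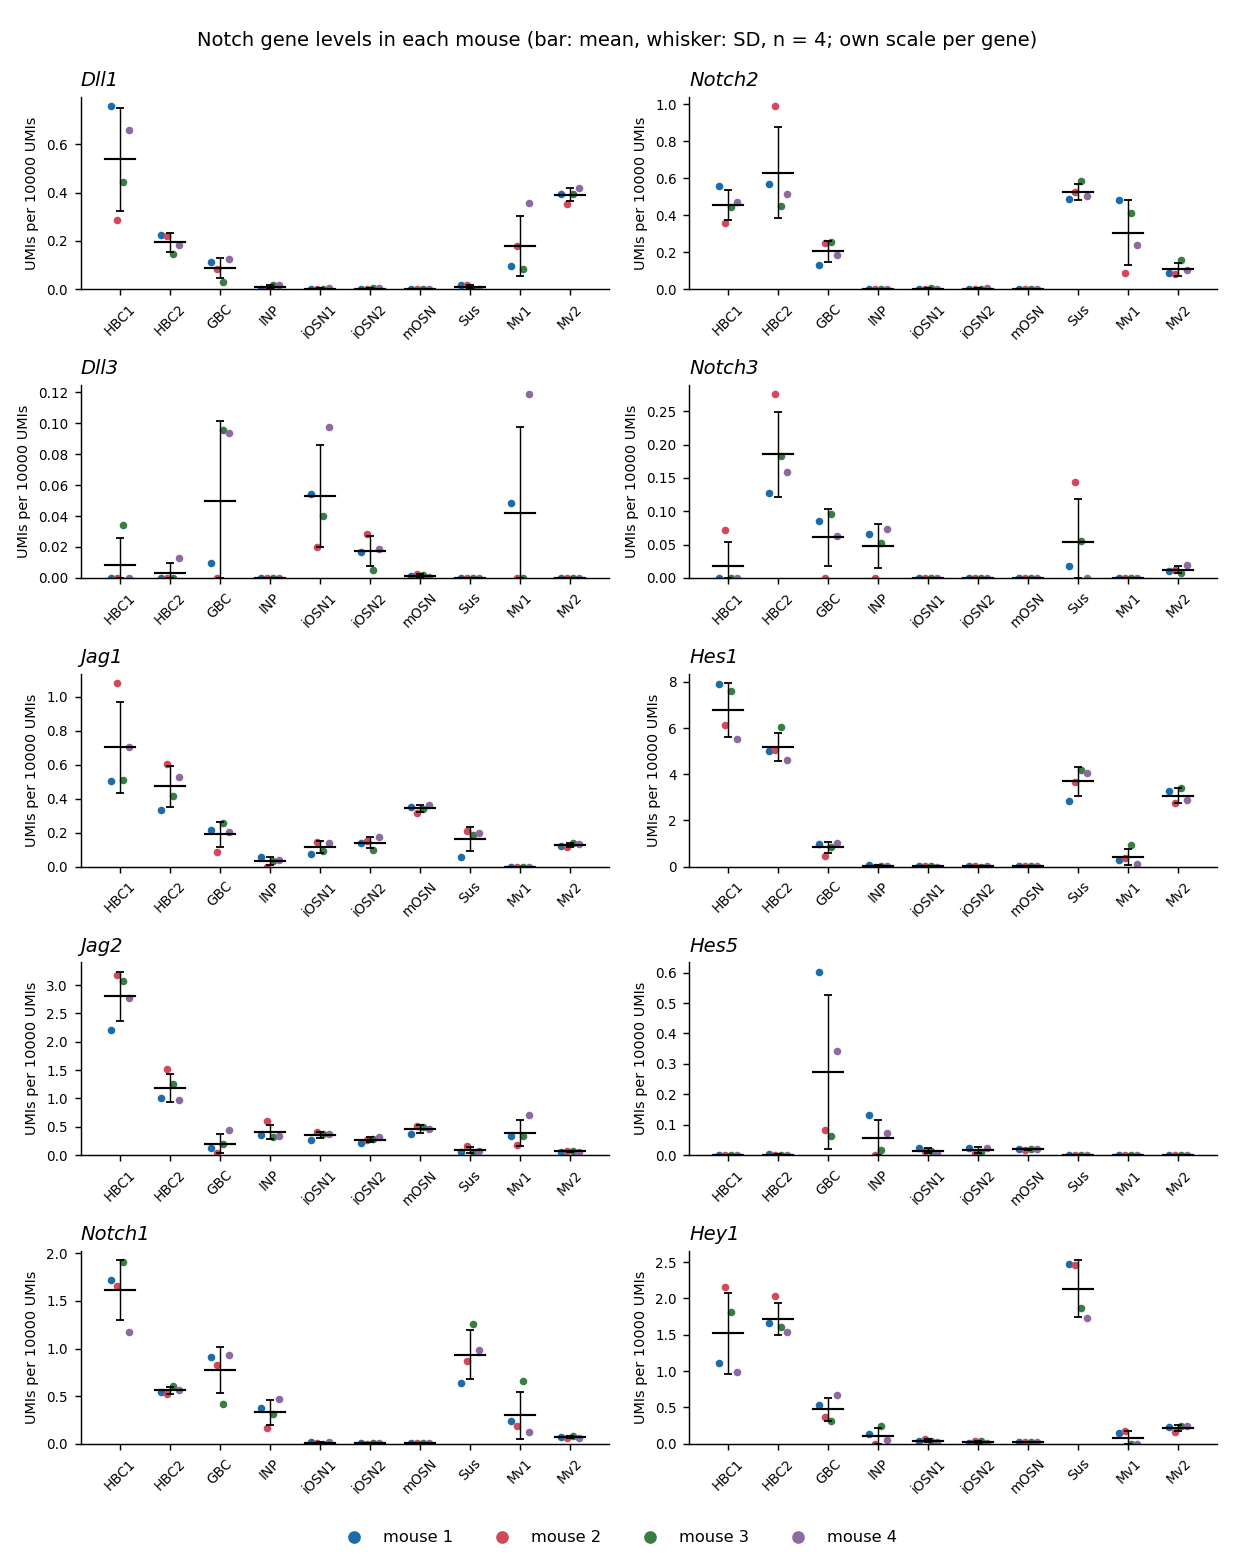
Level of each Notch gene in each type, in UMIs per 10000 on a linear axis with its own scale per gene, with 1 point per mouse, a bar for the mean and whiskers for the SD (n = 4). The 4 mature neuron values of Jag1 lie between 0.316 and 0.362, and Hes5 in GBC spreads from 0.0636 to 0.603.

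Notch1, the receptor known for lateral inhibition in many tissues, was read as 1.72, 1.66, 1.91 and 1.18 in HBC1 (1.62 ± 0.312). Sus followed at 0.633, 0.865, 1.26 and 0.99 (0.937 ± 0.262), with mouse 3 of Sus just above mouse 4 of HBC1. HBC1 exceeded Sus by 0.62 on the log2 scale (adjusted p = 0.023, 31.7% of all genes called). GBC came next at 0.914, 0.83, 0.414 and 0.936 (0.773 ± 0.244), which did not pass the test against Sus (log2 difference 0.48, adjusted p = 0.060, 46.4% of all genes called). INP was at 0.330 ± 0.129, and all 3 neuron types lay at or below 0.00884, from 6, 3 and 18 UMIs.

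Notch2, a receptor of broad expression, had no such peak. HBC2 was at 0.569, 0.991, 0.449 and 0.514 (0.631 ± 0.245) and Sus at 0.488, 0.528, 0.585 and 0.506 (0.527 ± 0.0421). HBC1 stood at 0.458 ± 0.0811, Mv1 at 0.307 ± 0.178 and GBC at 0.206 ± 0.0578, and no neighbours in this order of 5 types passed the test. INP held 0 UMIs of Notch2, and iOSN1, iOSN2 and mOSN held 1, 1 and 7, levels below the 0.0353 ± 0.0285 of blood cells.

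Notch3, known for its role in the muscle of vessel walls, was the sparsest receptor, with 127 UMIs. HBC2 gave 0.127, 0.275, 0.182 and 0.158 (0.186 ± 0.0639), and 57.5% of the UMIs. GBC (0.0607 ± 0.0427), Sus (0.0543 ± 0.0641) and INP (0.0475 ± 0.0328) each rested on 13 to 16 UMIs and overlapped. iOSN1, iOSN2, mOSN, Mv1 and blood held 0, which in mOSN allows a level of up to 0.00055.

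Hes1, a repressor that is a general readout of the pathway and also answers to other signals, was high in 4 types. The 4 mice gave 7.92, 6.13, 7.61 and 5.51 in HBC1 (6.79 ± 1.16) and 4.99, 5.07, 6.04 and 4.63 in HBC2 (5.18 ± 0.602). Sus was at 2.82, 3.68, 4.19 and 4.07 (3.69 ± 0.618), and Mv2 at 3.28, 2.76, 3.41 and 2.86 (3.08 ± 0.314). The basal groups overlapped each other and Sus overlapped Mv2, while GBC, at 0.971, 0.456, 0.859 and 1.01 (0.825 ± 0.255), lay below all of them. Mv2 exceeded GBC by 1.79 on the log2 scale (adjusted p = 3.3e-12, 59.9% of all genes called). In iOSN1, iOSN2 and mOSN Hes1 stood between 0.0132 and 0.0135, against 0.0136 ± 0.0157 in blood cells. Blood held only 4 UMIs of Hes1, against 72 in mOSN, and whether the neuronal values are free RNA was not tested. At equal depth 75.7% ± 3.2 of HBC1 cells, 59.4% ± 5.76 of Sus cells, 52.3% ± 2.23 of Mv2 cells and 20.3% ± 5.77 of GBC carried Hes1, against 0.472% ± 0.943 of blood cells.

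Hey1, a related repressor, was highest in Sus at 2.48, 2.47, 1.86 and 1.74 (2.14 ± 0.390), with HBC2 at 1.66, 2.04, 1.61 and 1.54 (1.71 ± 0.221) and HBC1 at 1.11, 2.16, 1.81 and 0.989 (1.52 ± 0.560). These 3 types overlapped, and neither neighbouring pair passed the test. HBC1 exceeded GBC by 1.55 on the log2 scale (adjusted p = 1.9e-06, 43.2% of all genes called). Hey1 was low in Mv2 (0.216 ± 0.0371), a type in which Hes1 was carried by most cells. It was carried by 42.9% ± 7.98 of Sus cells and 5.95% ± 2.11 of Mv2 cells at equal depth.

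Hes5, a repressor best known from neural progenitors, was centred on GBC, where mice 1 to 4 gave 0.603, 0.0829, 0.0636 and 0.343 (0.273 ± 0.254). Mice 2 and 3 lay far below mice 1 and 4, and rested on 2 UMIs each, against 64 and 22. INP gave 0.131, 0, 0.0173 and 0.0727 (0.0552 ± 0.0592). HBC1, Sus, Mv1 and Mv2 held 0 UMIs of Hes5, and HBC2 held 1 in 4562634, so the types richest in Hes1 and Hey1 had almost none. The floor of 3 counts allows a level of up to 0.00322 in Mv2 and 0.0138 in Sus. Mature neurons gave 0.0214, 0.0156, 0.0191 and 0.0192 (0.0188 ± 0.00240), from 104 UMIs, against 0.00233 ± 0.00466 in blood cells.

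RBPJ is known to bind the motif GTGGGAA, and the stretch before the Hes5 start is shown because it holds that motif more than once. In the RefSeq sequence of GRCm38.p6 the 250 bases before the start, chr4:154960673-154960922 on the plus strand, hold 2 matches, in capitals: 1 on the minus strand, where it reads TTCCCAC, 226 bases before the start, and 1 on the plus strand, 83 bases before it.
Hes5 promoter: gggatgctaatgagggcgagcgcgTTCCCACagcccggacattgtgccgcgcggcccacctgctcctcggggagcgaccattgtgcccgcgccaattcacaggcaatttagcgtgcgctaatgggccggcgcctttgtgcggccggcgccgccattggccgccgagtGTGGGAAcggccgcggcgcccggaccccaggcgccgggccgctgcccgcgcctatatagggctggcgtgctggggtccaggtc
Of 32851 promoters of this length, 5.42% held the motif on either strand and 0.161% held it at least 2 times. The same windows of Notch1, Notch2, Notch3, Dll1, Dll3, Jag1 and Jag2 held no match to these letters, and those of Hes1 and Hey1 were not searched. The windows of the further pathway genes Nrarp, Hes6 and Dlk2 held no match either. A match in a sequence is a description and shows no binding.

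Along the path from reserve stem cell to neuron the first step compared GBC with HBC2, and 7 of the 8 tested Notch genes were lower in GBC, in a comparison that called 50.6% of all genes (3803 lower and 2550 higher in GBC). The median of all genes was -0.20 on the log2 scale in this comparison and that of the 8 Notch genes -1.74. Hes1 was lower by the log2 change -2.79 ± 0.16 (SE, adjusted p = 2.0e-17), Jag2 by -2.64 ± 0.21 (adjusted p = 3.2e-13), Hey1 by -1.96 ± 0.19 (adjusted p = 3.1e-11) and Notch2 by -1.95 ± 0.32 (adjusted p = 3.8e-06). Each was lower in 4 of 4 mice, with no overlap between the types. Dll1, Jag1 and Notch3 were also lower, by -1.30, -1.39 and -1.53, Notch3 from 16 UMIs in GBC, and its call was lost without mouse 2, 3 or 4 (adjusted p between 0.0618 and 0.0922). Against the keratin cells of HBC2, at 0.0188, Notch3 was not tested, and its GBC level of 0.0607 was the higher one. After thinning 4 genes were called, with Dll1 (adjusted p = 0.143) and Jag1 (adjusted p = 0.072) lost and Notch3 not tested. Notch1 did not pass the test, at a log2 change of 0.26 ± 0.21 (adjusted p = 0.32). It passed at 0.61 (adjusted p = 0.022) without the GBC cells with Ascl3, stromal or glial markers and stood at -0.24 (adjusted p = 0.373) against the keratin cells alone.

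From GBC to INP, 7 of the 8 tested genes changed, 6 down and 1 up, against 44.5% of all genes called. Hes1 changed by -4.44 ± 0.43 (adjusted p = 1.1e-10), Jag1 by -2.25 ± 0.45, Hey1 by -1.95 ± 0.35 and Notch1 by -1.14 ± 0.25 (adjusted p = 2.3e-04), each lower in 4 of 4 mice. Notch2 went from 40 UMIs in GBC to 0 in INP, at least 13.2-fold lower over the mice. Dll1, with 2 UMIs in INP, was at 0.0880 of its GBC level (95% counting interval 0.0101 to 0.356, adjusted p = 5.8e-04). Of the 23 UMIs of Dll1 in GBC, 18 lay in cells with Ascl3 or Foxi1, markers of Mv2, and without the cells with those or stromal or glial markers the call was lost (-1.59 ± 1.05, adjusted p = 0.244), as it was after thinning (adjusted p = 0.0635). Jag2 rose by 0.78 ± 0.29 (adjusted p = 0.030) in 3 of 4 mice, and that call was lost without mouse 1, 2 or 3 (adjusted p between 0.0791 and 0.527) and after thinning (adjusted p = 0.301), and also without the GBC cells with Ascl3, stromal or glial markers (0.63 ± 0.31, adjusted p = 0.105).

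From INP to iOSN1, 4 of the 8 tested genes changed, against 39.5% of all genes. Notch1 changed by -5.24 ± 0.44 (adjusted p = 2.9e-12), from 81 UMIs in INP to 6, and Notch3 went from 13 UMIs to 0, at least 12.6-fold lower. Hey1 changed by -1.77 ± 0.50 (adjusted p = 0.0046), a call lost without mouse 3 (adjusted p = 0.147). Jag1 rose by 1.34 ± 0.45 (adjusted p = 0.017) in 4 of 4 mice, a call lost without mouse 2, 3 or 4 (adjusted p between 0.063 and 0.136) and after thinning (adjusted p = 0.132), where Notch3 was not tested. Hes1, on 9 UMIs in each type, stood at 0.0314 ± 0.0228 in INP and 0.0132 ± 0.00934 in iOSN1 (log2 change -1.55 ± 0.93, adjusted p = 0.19).

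From iOSN1 to iOSN2 the test called 0 of the 8 genes with edgeR and 0 with DESeq2, and 0 were under an unadjusted p of 0.05, against 45.1% of all genes called with edgeR. Notch3 had 0 UMIs in both types, and Notch1, Notch2 and Dll1 had at most 6 in either. Hes1 had 9 and 10. For these genes the counts were too few for the test to decide, so no lack of change is read from the 0 calls. Jag1 stood at 0.113 ± 0.0350 and 0.140 ± 0.0311 in the pair, and Jag2 at 0.354 ± 0.0603 and 0.275 ± 0.0407. From iOSN2 to mOSN, where 31.6% of all genes were called, 2 Notch genes changed and both rose. Jag1 rose by 1.34 ± 0.18 on the log2 scale (adjusted p = 3.7e-07) and Jag2 by 0.78 ± 0.13 (adjusted p = 1.2e-05), each in 4 of 4 mice with no overlap. The receptors Notch1, Notch2 and Notch3 had 18, 7 and 0 UMIs in the 54503758 UMIs of mature neurons.

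**Figure D3:**
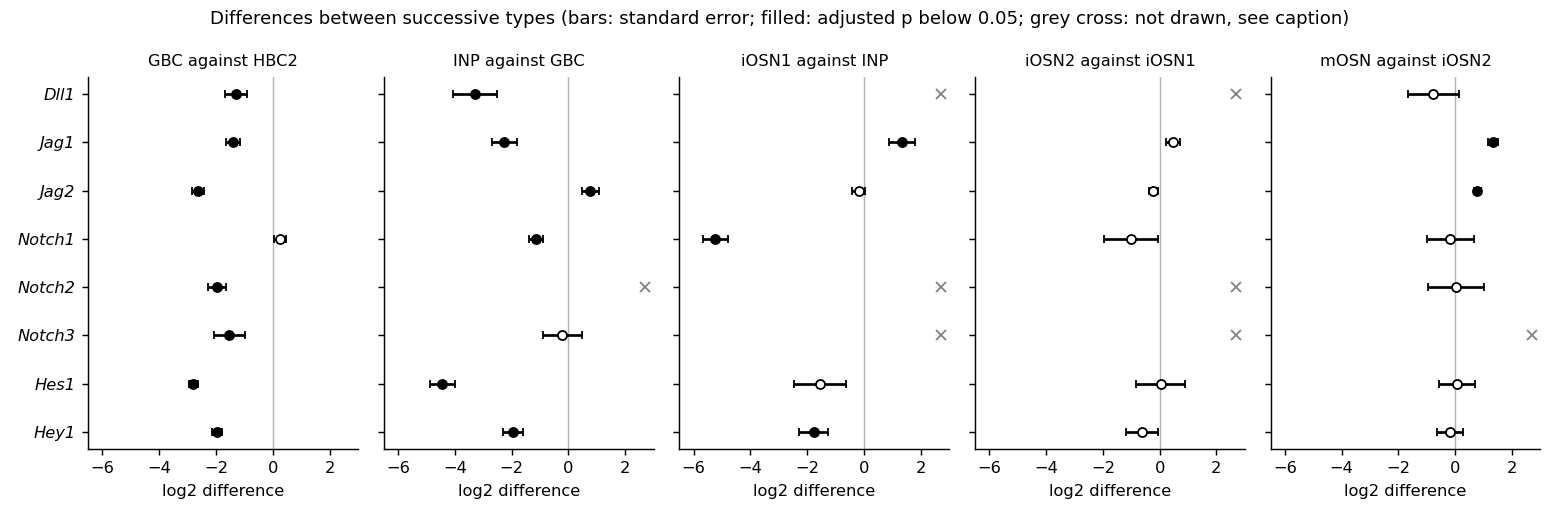
Log2 difference (x axis) for the 8 tested Notch genes (y axis) in the 5 comparisons of successive types, 1 per panel, with bars of 1 SE, filled points for adjusted p below 0.05 and open points for the others. A grey cross at the right marks a gene with 0 UMIs in 1 of the types, or at most 3 in both, for which no value is drawn. The points of GBC against HBC2 lie at or below -1.30, apart from Notch1 at 0.26.

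Among the cells outside the neuronal path, Sus was set against HBC2, and 6 of the 8 genes differed, 5 lower and 1 higher in Sus, against 30.4% of all genes (median of all genes -0.13). Among the ligands, Jag2 was lower in Sus by -3.77 ± 0.26 (adjusted p = 2.3e-14) and Jag1 by -1.47 ± 0.27 (adjusted p = 4.1e-05), and Dll1, with 2 UMIs in Sus, was at 0.0471 of its HBC2 level (95% counting interval 0.00561 to 0.175). Notch1 was higher in Sus by 0.74 ± 0.20 (adjusted p = 0.0045), a call lost when HBC2 was limited to its cells with basal keratins (0.28, adjusted p = 0.346), and Hes1 lower by -0.49 ± 0.12 (adjusted p = 0.0018, lost without mouse 1 at 0.0561). Notch3 was lower by -1.68 ± 0.57 (adjusted p = 0.027), a call lost without mouse 1, 3 or 4 (adjusted p up to 0.148), and its level in Sus, 0.0543, lay above the 0.0188 of the keratin cells of HBC2, a pair with too few UMIs to be tested. Mouse 2 gave 9 of the 13 Notch3 UMIs of Sus, and mice 1 to 4 stood at 0.0181, 0.144, 0.0549 and 0. Hey1, at 0.34 ± 0.14 (adjusted p = 0.066), and Notch2, at -0.20 ± 0.27, did not pass the test. Against the keratin cells alone Hey1 passed (0.86, adjusted p = 3.8e-05) and Notch2 turned to 0.0856 (adjusted p = 0.878).

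Between the basal groups 4 of the 8 genes differed, against 19.8% of all genes, whose median was -0.18. HBC1 exceeded HBC2 in Dll1 by 1.37 ± 0.34 (adjusted p = 0.0026), in Notch1 by 1.36 ± 0.21 (adjusted p = 6.2e-06) and in Jag2 by 1.05 ± 0.14 (adjusted p = 6.8e-07), each in 4 of 4 mice with no overlap. Notch3, with 1 UMI in HBC1 against 73 in HBC2, was at 0.0601 of its HBC2 level (95% counting interval 0.0015 to 0.346, adjusted p = 0.0041), a call lost without mouse 1 or 3 (adjusted p = 0.0528 and 0.0688). Of those 73 UMIs, 57 lay in HBC2 cells with Cyp2g1 or Bpifa1 and without basal keratins, and the keratin cells of HBC2 stood at 0.0188, beside 0.0180 in HBC1. After thinning the Dll1 call was lost (adjusted p = 0.288) and Notch3 was not tested. Hes1, at 0.24 ± 0.13, Jag1, at 0.37 ± 0.24, and Hey1, at -0.41 ± 0.18 and at 0.0913 against the keratin cells alone, did not pass. The levels of respiratory and sustentacular markers given above differed between the same groups, and their part in these results was tested only through the keratin cells given below.

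Both microvillar groups were set against Sus. In Mv1, 7 of the 8 genes differed from Sus, against 23.9% of all genes. Mv1 of mouse 3 stood apart, with the summed markers of Mv2 at 18.6 against 0.145 to 0.633 in the other mice, and it held 8 of the 16 Notch1 and 11 of the 22 Hes1 UMIs of Mv1. Hey1 was lower in Mv1 by -4.89 ± 0.44 (adjusted p = 3.0e-11), Hes1 by -3.55 ± 0.30 (adjusted p = 7.5e-12), Notch1 by -2.02 ± 0.36 (adjusted p = 3.1e-05) and Notch2 by -1.05 ± 0.39 (adjusted p = 0.046), the last a call lost in each mouse left out but mouse 1. Without mouse 3 Hes1 was lower by -4.10 ± 0.40 and Notch1 by -2.46 ± 0.38, both still called. Jag1, with 0 UMIs in Mv1, was at least 2.79-fold lower. Jag2 was higher in Mv1 by 1.70 ± 0.54 (adjusted p = 0.016) and Dll1, on 8 UMIs against 2, by a ratio of 16.7 (95% counting interval 3.33 to 162, adjusted p = 0.0027). Without mouse 4 the count fell to 4 of the 8, with Dll1, Jag2 and Notch2 among the calls lost, and after thinning Dll1 (adjusted p = 0.717) and Notch2 (adjusted p = 0.133) did not pass.

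In Mv2, 6 of the 8 genes differed from Sus, against 46.7% of all genes. Dll1 was 42.9 times as high in Mv2 (95% counting interval 11.8 to 356, adjusted p = 1.5e-09). The receptors were lower, Notch1 by -3.96 ± 0.24 (adjusted p = 1.0e-16), Notch2 by -2.53 ± 0.29 (adjusted p = 4.5e-09) and Notch3 by -2.38 ± 0.75 (adjusted p = 0.011), the last lost without mouse 2 or 3 (adjusted p = 0.283 and 0.0784). Hey1 was lower by -3.52 ± 0.17 (adjusted p = 8.8e-20), yet Hes1 only by -0.51 ± 0.12 (adjusted p = 5.3e-04). Hes1 was lower in 3 of 4 mice and higher in 1, with overlapping ranges, and the ratio of its summed levels was 0.853. Mv2 thus held Hes1 at 3.08 ± 0.314, against 3.69 ± 0.618 in Sus, beside Notch1 at 0.0699 ± 0.0132, against 0.937 ± 0.262 in Sus.

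Because GBC and HBC2 held markers of several kinds of cell, their cells were divided by UMIs of a few marker genes, with limits set after seeing the data and with no test. The limits in GBC were at least 2 summed UMIs of Neurog1 and Neurod1 or of Ascl3 and Foxi1, and at least 3 of the stromal and glial markers. GBC divided into 57 cells with Neurog1 or Neurod1, transcription factors of neuronal precursors, 48 with Ascl3 or Foxi1, factors of the Mv2 type, 29 with stromal or glial markers, and 68 below all of these limits. The first group held 32.1% of the UMIs of GBC but 147 of its 190 Notch1 UMIs (77.4%), 77 of its 90 Hes5 UMIs (85.6%) and 72 of its 118 Hey1 UMIs (61.0%). These sums came mainly from mice 1 and 4. In mouse 3 the group held 2 UMIs of Notch1, at a level of 0.275 against 0.426 in the cells below all limits, and 0 of Hes5 and Hey1, and in mouse 2 it held 1 UMI of Hey1. Mice 2 and 3, low in Hes5, had 7 and 4 of these cells, against 31 and 15 in mice 1 and 4, and the part of this in the Hes5 spread was not tested.

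Most Dll1 and Dll3 of GBC lay in other cells. The cells with Ascl3 or Foxi1 held 18 of the 23 Dll1 UMIs (78.3%) in 22.2% of the UMIs, so most Dll1 in GBC was in cells that carry markers of Mv2, the type that also held most Dll1 overall. Of 10 Dll3 UMIs, 9 lay in the cells below all the marker limits. The 29 cells with stromal or glial markers, with 6.15% of the UMIs, held 39.1% of the Jag1, 23.3% of the Hes1 and 8 of the 16 Notch3 UMIs of GBC. Mouse 1 gave 37 of their 48 Hes1 UMIs and 6 of their 8 Notch3 UMIs, and without it the share of Hes1 was 10.7% and that of Notch3 was 2 of 7 UMIs. Few cells lay at the limits: 5 cells had 1 or 2 UMIs of Ascl3 and Foxi1, and 10 had 1 or 2 of Neurog1 and Neurod1.

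In HBC2, 395 cells had at least 2 summed UMIs of the basal keratins Krt5 and Krt14. A further 113 had 0 of these and at least 5 UMIs of Cyp2g1 and Bpifa1, and 36 met neither limit. Near the keratin limit, 28 cells had 1 or 2 UMIs. The keratin cells held 64.5% of the UMIs, 95.5% of Dll1, 93.9% of Jag2 and 85.2% of Notch1. The cells with Cyp2g1 or Bpifa1 held 30.2% of the UMIs, 57 of 73 Notch3 UMIs (78.1%) and 48.0% of Hey1. Hes1 was spread over both, at 4.83, 5.71, 6.58 and 5.69 (5.70 ± 0.712) in the keratin cells and 5.38, 4.13, 4.86 and 2.73 (4.28 ± 1.15) in the others. Of the keratin cells, 88 also carried at least 5 UMIs of Cyp2g1 and Bpifa1, so the division was not sharp. With the keratin cells alone as HBC2, HBC1 still exceeded HBC2 in Notch1 (0.90 ± 0.21, adjusted p = 0.0023) and Jag2 (0.46 ± 0.14, adjusted p = 0.014), while Dll1 no longer passed (0.74 ± 0.33, adjusted p = 0.139) and Notch3, at 0.0188 ± 0.0126 from 7 UMIs in the keratin cells against 0.0180 ± 0.0360 in HBC1, fell below the filter on low counts and was not tested.

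**Figure D4:**
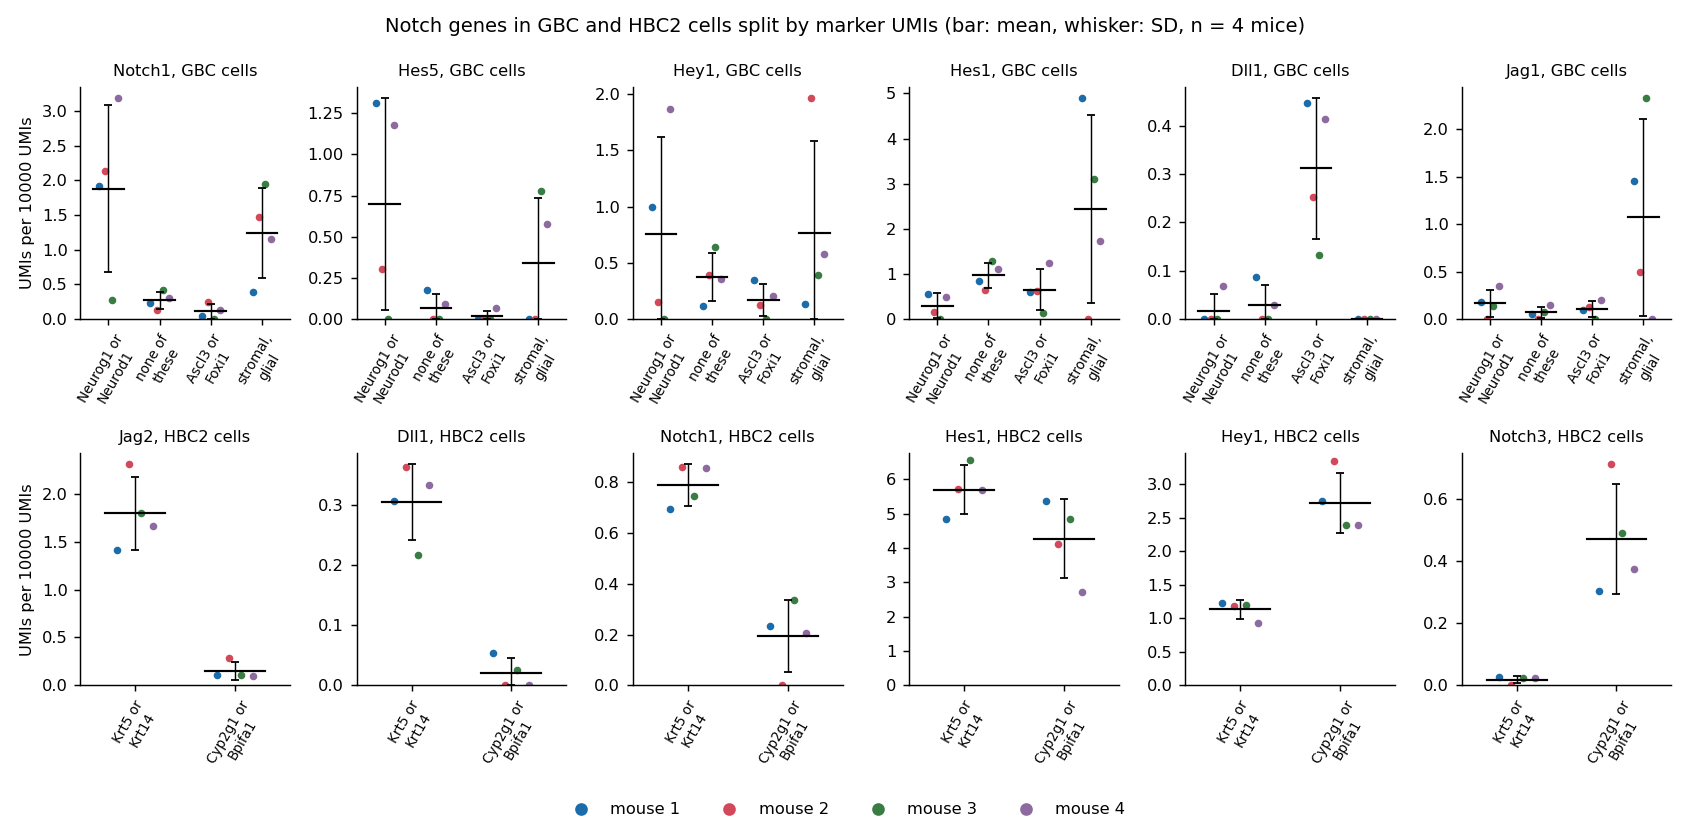
Level of 6 Notch genes in the marker-defined parts of GBC (top) and of 6 in those of HBC2 (bottom), in UMIs per 10000, with 1 point per mouse, a bar for the mean and whiskers for the SD (n = 4). Dll1 of GBC is highest in the cells with Ascl3 or Foxi1 (0.312 ± 0.146), and Jag2 of HBC2 in the keratin cells (1.80 ± 0.379). Cells drawn as none of these lie below all the marker limits.

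Whether cells with ligand transcript held more or less receptor or target transcript was asked in GBC and INP cells with and without a Dll1 UMI. The cells with Dll1 numbered 7, 2, 2 and 7 in mice 1 to 4, so the levels below rest on very few cells, above all in mice 2 and 3. The summed receptors stood at 0.612, 0, 0.350 and 0.402 UMIs per 10000 in cells with Dll1 and at 0.819, 0.706, 0.509 and 0.923 in cells without. They were lower in cells with Dll1 in 4 of 4 mice, by a mean difference of -0.398 ± 0.260 (SD), with p = 0.13 in an exact two-sided test that flips signs over mice, the smallest value this design can give. The difference was -0.255 ± 0.478, lower in 3 of 4 mice, without the highest Scrublet (doublet) scores, -0.836 ± 0.235 in GBC alone and -0.087 ± 0.659 in INP alone, where 2 mice had such cells and 1 was lower. After thinning it was -0.759 in the 3 mice left, where the cells with Dll1 held 0 receptor UMIs. That value is the level of 0.759 in the cells without Dll1 with its sign turned. Few cells carried a Dll1 UMI at this depth, so 0 receptor UMIs in them decides nothing. The target values after thinning, given next, rest on the same cells. The summed targets differed by -0.00339 ± 0.691 (exact p = 1.0), lower in 2 of 4 mice, and by -0.793 ± 0.957 in GBC alone, lower in 3 of 4 mice, and -0.713 ± 0.355 after thinning, lower in 3 of 3 mice. Of the 16 GBC cells with a Dll1 UMI, 12 had at least 2 UMIs of Ascl3 and Foxi1, and their part in the receptor values was not tested.

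The rest of the pathway was described by a list of 48 further genes, of which 38 passed the filter, and 36 of these differed among the 10 types (97.1% of all genes did). Itch and Poglut1 did not pass. The called genes moved in both directions in every comparison, with 22 of 38 called in GBC against HBC2 (11 higher and 11 lower, 50.6% of all genes called), 18 in INP against GBC (7 and 11, 44.5%), 19 in iOSN1 against INP (7 and 12, 39.5%), 20 in iOSN2 against iOSN1 (7 and 13, 45.1%) and 9 in mOSN against iOSN2 (2 and 7, 31.6%). Outside the neuronal path there were 13 in Sus against HBC2 (3 and 10, 30.4%), 9 in HBC1 against HBC2 (2 and 7, 19.8%), 11 in Mv1 against Sus (7 and 4, 23.9%) and 19 in Mv2 against Sus (9 and 10, 46.7%). Many of these counts lay near the share of all genes, and nothing particular to the list is read from them. The list's median lay between -0.37 and 0.09 on the log2 scale over these comparisons, while that of all genes lay between -0.20 and 0.05.

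Mfng, an enzyme that adds sugars to Notch and alters its choice of ligand, stood at 3.54, 2.98, 1.72 and 1.65 in GBC and 2.12, 3.98, 2.65 and 2.51 in INP, against 0.0587 ± 0.0230 in iOSN1 and 0.00588 ± 0.0118 in HBC2. It was higher in GBC than in HBC2 by 7.49 ± 0.41 on the log2 scale (adjusted p = 8.9e-17) and lower in iOSN1 than in INP by -5.60 ± 0.28 (adjusted p = 1.4e-17). Of the Mfng UMIs of GBC, 80.9% lay in the cells with Neurog1 or Neurod1. Nrarp, a feedback inhibitor of Notch, was at 0.358 ± 0.0695 in GBC and 0.399 ± 0.112 in INP and changed by -3.21 ± 0.42 into iOSN1 (adjusted p = 7.0e-08). Lfng, a relative of Mfng, was lower in INP than in GBC by -2.84 ± 0.49 (adjusted p = 1.6e-05). Of the 19 UMIs of the ligand Dll4 in GBC, 18 lay in the cells with Neurog1 or Neurod1, but 17 of these were from mouse 1 and 1 UMI was left without it.

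Among the nuclear members, Hes6, a family member known to oppose Hes1, was at 14.9, 5.84, 11.6 and 17.8 in GBC (12.5 ± 5.13) and at 6.4 ± 0.634 in INP, higher in GBC than in HBC2 by 4.21 ± 0.19 (adjusted p = 2.7e-20). Rbpj, the DNA-binding partner, rose from GBC to INP by 0.78 ± 0.17 (adjusted p = 2.6e-04) to 0.892 ± 0.18, and Maml3, a coactivator, by 1.06 ± 0.25 (adjusted p = 6.6e-04) to 1.02 ± 0.0656. Maml3 then changed by -3.68 ± 0.27 into iOSN1 (adjusted p = 1.2e-13). Id1, an inhibitor of neuronal transcription factors, changed by -3.86 ± 0.24 at that step (adjusted p = 1.1e-15), from 2.96 ± 0.254 to 0.210 ± 0.0956.

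Psen2, the catalytic part of the enzyme that releases the inner part of Notch and cuts many other proteins, rose by 1.36 ± 0.20 into iOSN1 (adjusted p = 9.0e-07) and by 0.93 ± 0.13 into iOSN2 (adjusted p = 1.5e-07), and stood at 3.24 ± 0.132 in mOSN, from 17599 UMIs. Dtx1, a Deltex ligase, rose by 2.05 ± 0.26 into iOSN1 (adjusted p = 5.5e-08). In Mv2, Neurl1a, a ligase that acts on ligands, was higher than in Sus by 4.99 ± 0.30 (adjusted p = 7.6e-17), at 1.76 ± 0.353 against 0.0436 ± 0.0491, and Bhlhe40, a repressor of circadian genes, by 3.29 ± 0.25 (adjusted p = 1.1e-13). Dtx4 was lower in Mv2 by -5.37 ± 0.43 (adjusted p = 3.8e-13). Dlk2, a ligand-like protein that does not activate Notch as Delta does, stood at 1.29 ± 0.580 in HBC1 and 0.682 ± 0.151 in HBC2 and had 0 UMIs in GBC.

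**Figure D5:**
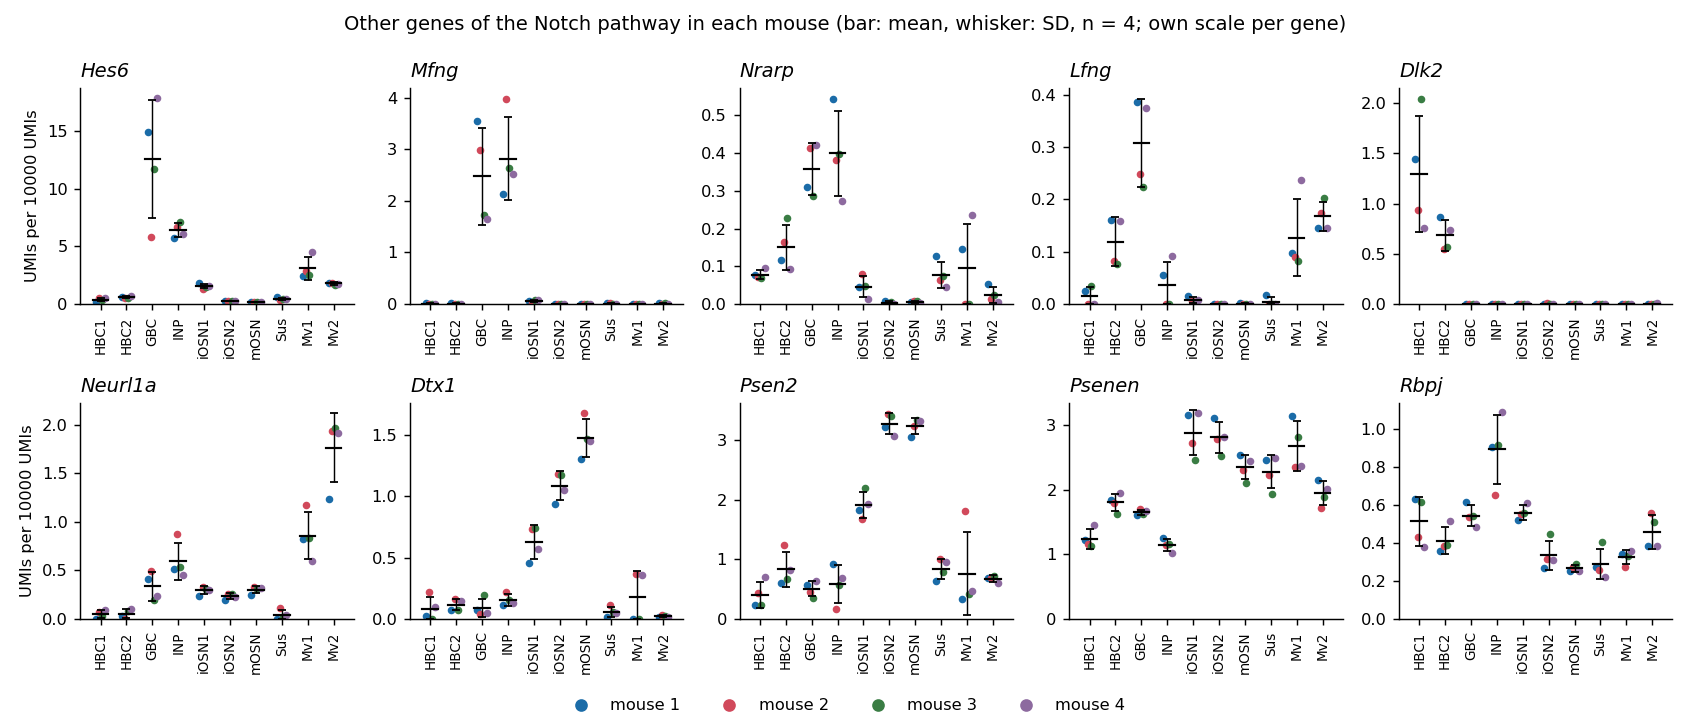
Level of 10 further pathway genes in each type, in UMIs per 10000 on a linear axis with its own scale per gene, with 1 point per mouse, a bar for the mean and whiskers for the SD (n = 4). Mfng is high in GBC (2.47) and INP (2.82) and low in iOSN1 (0.0587), and Psen2 is high in iOSN2 (3.28) and mOSN (3.24).

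For the 7 Notch genes with a highest type mean of at least 0.5, the genes with the most similar levels over the types were found by Pearson correlation of log2(mean + 0.1) over the 10 types, as a description. Gpx8 (r = 0.997), Crybg3 and Wls, a carrier of Wnt ligands, were most like Hes1. Boc (0.983), a Hedgehog co-receptor, Rab34 and Trip6 were most like Hey1. Ppm1m (0.965), Efnb2, an ephrin ligand, and Plpp3 were most like Notch1, and Rhoc (0.981), Slc22a18 and Cryl1 most like Notch2. Pdlim3 (0.985), Sox2ot and Itga3, an integrin of basal cells, were most like Dll1. Tmem18 (0.919), Tgfbr2 and Cdc42ep3 were most like Jag1, and Fbf1 (0.927), Slc1a4 and Frem2 most like Jag2. Among the Notch genes themselves r was 0.896 for Hes1 with Hey1, 0.894 for Hes1 with Notch2 and 0.219 for Hes1 with Jag2, over types that share libraries and mice.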

How the data were processed

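Cell Ranger 6.0.1 with the GRCm38 genome was used by the authors, who deposited raw UMI counts per gene and cell, with a cell table that gives each cell's type. They removed clusters of immune cells, blood cells and cells with many mitochondrial reads, then cells over 10% mitochondrial UMIs or under 1000 genes, and 0 retained cells lay outside these limits. Read filters beyond these are not given in the sources used here. The deposited merged counts were equal to the matrices of each mouse. The authors' types were taken as deposited.

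Counts were summed per mouse and type. Tests used edgeR 4.0.16 in R 4.3.3 (TMM, filterByExpr, quasi-likelihood, model of type and mouse), adjusted over all tested genes at 0.05. The mouse was a block, since the sums of a mouse share its library. Alternatives were DESeq2 1.42.0, no filter, no block, thinning to 3000 UMIs per cell (in shares of cells, 185 of 202 GBC, 173 of 210 HBC1 and 77 of 124 Mv1 cells were deep enough), at least 2000 genes per cell, and leaving out each mouse. On data simulated for GBC against HBC2 alone, with 11167 genes, 100% of 4-fold and 44.0% of 2-fold changes were recovered, with 5.88% false calls. The simulated spread was fixed and the changed genes all lay above a minimum mean level, so recovery of sparser genes such as Notch3 was not measured. Intervals and floors (3 counts) cover counting error only.

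For doublets, Scrublet was run (scanpy 1.11.5, expected rate 5%) and called 3, 2, 4 and 36 barcodes as doublets (0.0351% to 0.600%), far below the expected rate in each mouse. The calls were not used, and the highest 4% of scores per mouse were left out as an alternative. Positions came from GENCODE M21 and promoters from RefSeq.

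All 10 genes and the 48 pathway genes are fixed lists. Only some of the called pathway genes are named, and they were picked after their values were seen. A pathway gene that is not named may also have been called. The members and lists were chosen with earlier results of these data known. The divisions of GBC and HBC2, and Dll4, which passed no filter, were added after seeing the data. Some items are not reported here.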

Additional observations from a re-analysis of the deposited data

Results flagged for a closer look

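In 3 of 66 groups of 4 mice with at least 10 UMIs a single mouse stood apart by Dixon's test, which chance does in about 1 of 20 groups. Jag1 in Sus was 0.0542 UMIs per 10000 in mouse 1, against 0.183 to 0.208 in the others. Jag2 in INP was 0.600 in mouse 2, against 0.328 to 0.349 in the others. Jag2 in Sus was 0.160 in mouse 2, against 0.0542 to 0.0660 in the others.

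Notch genes were also read in cells that the authors had left out, above the level in the removed blood cells. In immune cells Notch2 stood at 0.626 UMIs per 10000, Notch1 at 0.545 and Hes1 at 0.820, against 0.0353, 0.00233 and 0.0136 in blood. Immune cells further gave 0.0843 for Jag1, 0.0710 for Jag2, 0.0291 for Hey1, 0.0202 for Hes5, 0.0137 for Dll1 and 0.00417 for Dll3. In cells left out for a high mitochondrial share Hes1 stood at 1.17, Jag2 at 0.509, Dll1 at 0.201, Jag1 at 0.168, Hey1 at 0.144, Notch1 at 0.0842 and Notch2 at 0.0368. Blood gave 0.0464 for Jag1, 0.00789 for Dll1, 0.00623 for Hey1 and 0 for Dll3. Ranges over the mice overlapped those of blood for Jag1, Dll1, Hey1 and Dll3 in immune cells. They also overlapped for Jag1 and Notch2 in the cells with a high mitochondrial share.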

How the results depend on the processing

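Of the values recomputed for single genes in single comparisons, 473 kept their direction and their side of the threshold, 43 lost the call, 5 gained it and 4 reversed. These cover genes called in some setting and a few others named in the text. A gene that fell below the filter in a setting, such as Notch3 after thinning, is not counted there as lost. Thinning to 3000 UMIs, which leaves fewer counts, lowered the called genes to 4 in GBC against HBC2, 2 in iOSN1 against INP and 2 in HBC1 against HBC2, and HBC2 with keratin cells alone gave 2 in HBC1 against HBC2. The fit without the replicate block of mouse changed none of the 10 counts past the 1.5-fold margin. With each mouse left out the called genes ranged from 8 to 9 among the types (Hes5 was then tested too, without mouse 2 or 3), 6 to 7 in GBC against HBC2 and in INP against GBC, 3 to 4 in iOSN1 against INP and in HBC1 against HBC2, 4 to 6 in Sus against HBC2 and in Mv1 against Sus, and 5 to 7 in Mv2 against Sus, and 8 to 10 genes kept their highest type. In iOSN1 against INP the 3 genes called without mouse 3 include a gene outside the 4 of the full fit. Hey1 and Jag1 lost their calls there. The reversed values were of genes that did not pass the test in either setting. Notch1 in GBC against HBC2 became -0.24 with the keratin cells alone (adjusted p = 0.373), Notch2 in Sus against HBC2 became 0.0856 there and ranged from -0.36 to 0.00488 with each mouse left out, and Hey1 in HBC1 against HBC2 became 0.0913 there. Without the cells with Ascl3, stromal or glial markers Notch1 in GBC exceeded HBC2 by 0.61 (adjusted p = 0.022) and Dll1 and Jag2 in INP against GBC lost their calls (-1.59, adjusted p = 0.244, and 0.63, adjusted p = 0.105), and with keratin cells alone Notch1 in Sus against HBC2 lost its call (0.28, adjusted p = 0.346) and Hey1 gained one (0.86, adjusted p = 3.8e-05). The target difference in cells with Dll1, -0.793 in GBC alone and -0.713 after thinning, became 0.142 in INP alone and 0.143 without the highest Scrublet scores, and ranged from -0.314 to 0.228 with each mouse left out. The level of Jag2 in HBC1 moved to 2.12 in cells with at least 2000 genes. The causes of these shifts were not tested.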
